A study of Mus musculus with 8 samples.

Results

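The CC chemokines described here are 10 genes of the deposited mouse expression table, out of 54532 genes in all, and were taken by their gene symbols: *Ccl2*, *Ccl3*, *Ccl4*, *Ccl5*, *Ccl6*, *Ccl7*, *Ccl8*, *Ccl9*, *Ccl11* and *Ccl12*. They were followed over 8 RNA-seq libraries of MICFs, which are cardiac fibroblasts taken from the infarcted hearts of C57BL/6 mice a few days after ligation of the left anterior descending artery. All 8 libraries carried the genotype MGTMyoS overexpression, that is, doxycycline-inducible lentiviral *Mef2c*, *Gata4*, *Tbx5*, *Myocd* and *Sall4* together with inducible eGFP, and doxycycline was given in both settings. The libraries fell into 4 groups of 2. In the In vivo 1w and In vivo 2w groups the cells had been injected into the left ventricle of a newly infarcted host and eGFP+ cells were sorted back after 1 week (day 7) or 2 weeks (day 14). In the In vitro 1w and In vitro 2w groups the cells had stayed in culture for the same times, and the paper's results state that eGFP+ cells were sorted from these cultures as well. Host hearts were chopped and digested before the sort. Several differences of handling therefore came with the setting: host mice received tacrolimus, methylprednisolone and mycophenolate mofetil every day, whereas the reprogramming medium in the study's methods holds SB431542, an inhibitor of TGF-β receptors, and baricitinib, an inhibitor of JAK kinases. Whether each of these cultures had both compounds is not stated in the labels. The fibroblast preparation also held macrophages, and the eGFP gate marks cells that took up and induced the reporter rather than a cell type. No label says which animal or well a library came from, so the p-values measure the spread between these libraries, which may be technical.

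Chemokines are small secreted proteins that guide leukocytes along a gradient, and the CC family is named after a pair of cysteines that stand side by side near the start of the mature protein. Each ligand acts through G protein-coupled receptors on the target cell. CCL2, CCL7 and CCL12 are ligands of CCR2, the receptor by which inflammatory monocytes leave the bone marrow and enter an infarct, CCL3 and CCL5 can act on CCR1, and CCL11 (eotaxin) acts on CCR3 of eosinophils. Fibroblasts, endothelial cells and macrophages of an injured heart can all make such ligands, and many of the genes are known targets of NF-κB.

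All 10 genes lie on chromosome 11 of GRCm38 (mm10), in a pair of blocks, and were annotated as protein-coding. The first block spans 81.2 kb and holds 5 members on the forward strand: *Ccl2* (ENSMUSG00000035385) at chr11:82035571-82037453, *Ccl7* at chr11:82045712-82047525, *Ccl11* at chr11:82057823-82062955, *Ccl12* at chr11:82101845-82103400 and *Ccl8* at chr11:82115185-82116799. The second block starts 1409 kb further on, spans 139 kb and holds the other 5: *Ccl5* at chr11:83525778-83530518, *Ccl9* at chr11:83572919-83578636, *Ccl6* at chr11:83587882-83593087 and *Ccl3* at chr11:83647844-83649355 on the reverse strand, and *Ccl4* at chr11:83662584-83664683 on the forward strand. The set was split by receptor into the monocyte-attracting cluster *Ccl2*, *Ccl7* and *Ccl12*, which the study tests as recruiting factors, and the other 7 members. A wider form of the cluster adds its neighbours *Ccl8* and *Ccl11*.

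The family signature is visible in the coding sequence. The 66 coding bases around the cysteine pair are given below for the 3 CCR2 ligands and for *Ccl8*, because these neighbours in 1 block behaved differently in the libraries. They are read 5′ to 3′ from the first GENCODE vM21 transcript of each gene, with the adjacent cysteine codons in capitals.
Ccl2: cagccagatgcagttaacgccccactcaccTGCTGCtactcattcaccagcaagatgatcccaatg
Ccl7: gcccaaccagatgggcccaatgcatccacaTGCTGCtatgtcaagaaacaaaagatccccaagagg
Ccl12: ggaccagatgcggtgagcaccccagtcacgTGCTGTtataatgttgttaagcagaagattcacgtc
Ccl8: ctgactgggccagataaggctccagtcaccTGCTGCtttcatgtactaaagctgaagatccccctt
The pair falls at codons 34 and 35 of *Ccl2*, at codons 33 and 34 of *Ccl7* and *Ccl12*, and at codons 32 and 33 of *Ccl8*. Each of the 10 coding sequences held 1 such pair. Coding length differed within the cluster: *Ccl2* has 148 codons before its stop, *Ccl12* has 104 and *Ccl7* has 97. Over the 45 pairs of members, identity of the aligned coding bases ran from 60.2% to 72.4%, with *Ccl2* and *Ccl7* the closest pair. The longest identical run shared by any 2 transcripts was 25 bases (*Ccl6* with *Ccl9*), and *Ccl2* and *Ccl7* shared at most 23. Read length and the handling of reads that match more than 1 gene are not given in the sources used here. *Ccl2* overlaps the antisense gene *Gm17268*, which was at 0 FPKM in every library, and *Ccl6* overlaps the antisense gene *E230016K23Rik*, which did not exceed 0.327 FPKM.

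Levels are given in FPKM, fragments per kilobase of gene scaled to the size of the library. The deposited gene length is what is divided out, and it can exceed the first GENCODE transcript. It was 1138 bases against 813 for *Ccl2* and 960 against 532 for *Ccl5*, but 801 against 801 for *Ccl7*. Levels and ratios of different genes are therefore only roughly comparable. Each library held between 12304242 and 14546904 fragments on genes, and 1 fragment on a gene of 1 kb was worth between 0.0650 and 0.0905 FPKM. The labelled cell type was checked against marker genes. The summed FPKM of 10 fibroblast markers was 12447 to 13277 *in vivo* at 1 week, 3117 to 3255 in culture at 1 week, 10193 to 11618 *in vivo* at 2 weeks and 2134 to 2148 in culture at 2 weeks. The summed FPKM of 15 macrophage markers was high in every group too, at 2977 to 3467, 5668 to 6458, 2129 to 2558 and 5372 to 6591 in the same order. A few genes weigh most in these sums. By mean FPKM over the 8 libraries, *Col1a1* (2166) and *Col3a1* (2054) led the fibroblast list. *Lyz2* (2398) led the macrophage list, ahead of *C1qb* (534). Monocyte markers summed to 13.5 to 51.2 FPKM in the transplanted and 2.41 to 4.18 in the cultured libraries. T and NK cell, B cell, dendritic and mast cell markers each summed to under 5 FPKM in every library, and neutrophil markers to at most 9.46, with *Ly6g* at 0 throughout. In such bulk libraries, fewer cells of a type and less RNA per cell cannot be told apart.

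A small number of members carried most of the signal. *Ccl2*, *Ccl7*, *Ccl3* and *Ccl4* were the 4 highest members in every library except In vivo 2w replicate 2, where *Ccl6*, at 63.41 FPKM, stood above *Ccl2*, *Ccl7* and *Ccl3* and level with *Ccl4*, at 63.38. The summed FPKM of all 10 was 588 and 734 in the In vivo 1w libraries, 919 and 978 in the In vitro 1w libraries, 544 and 394 in the In vivo 2w libraries and 2799 and 3673 in the In vitro 2w libraries. The 2-week cultures thus stood above every other library. The 6 remaining members made up 4.80% and 4.76% of the sum in the 2-week cultures and 31.7% and 39.0% in the transplanted cells of the same age.

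**Figure D1:**
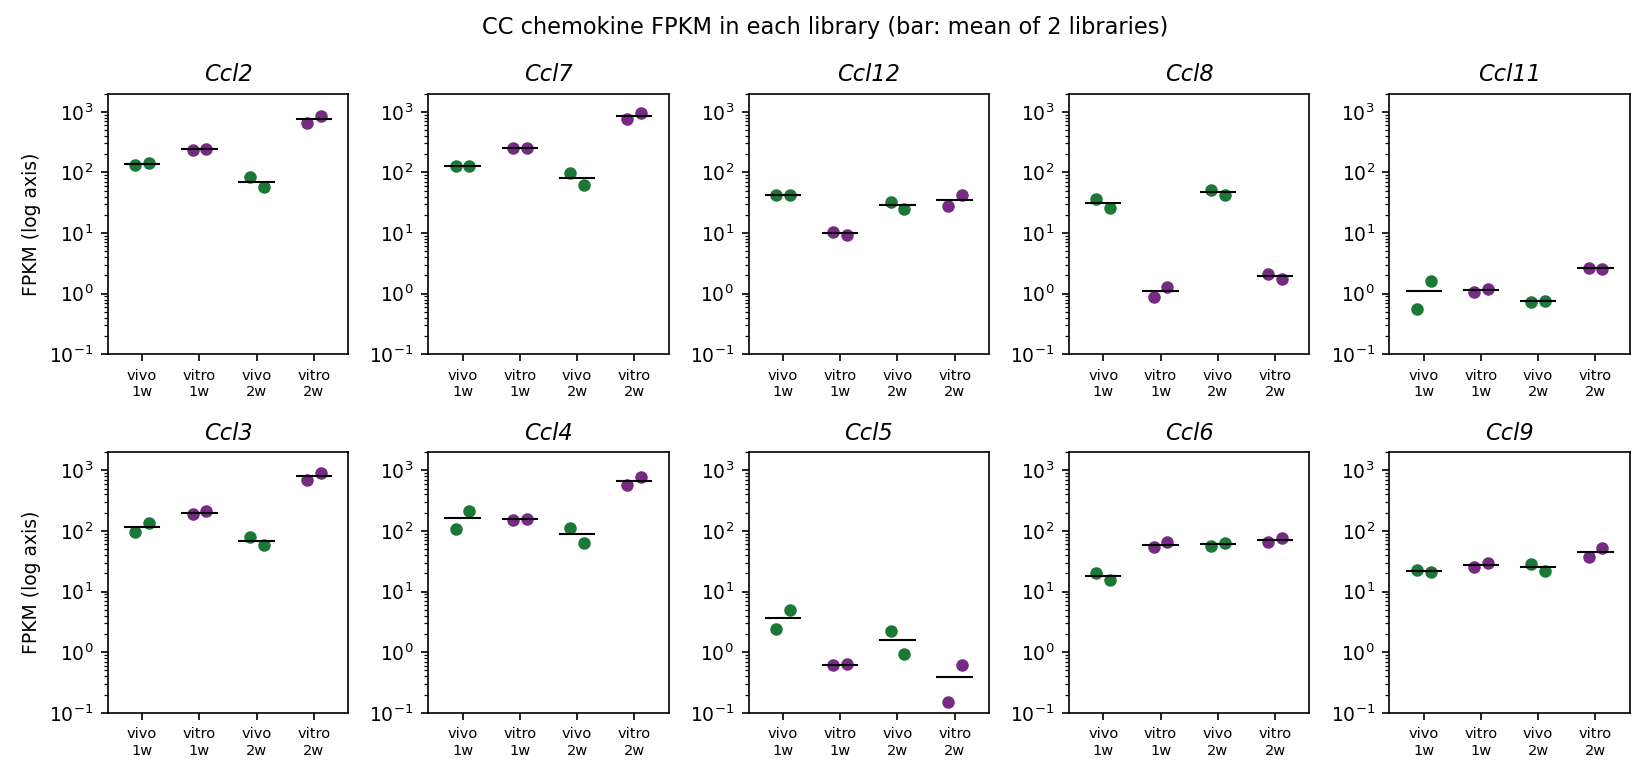
FPKM of each member in each of the 8 libraries, on a log axis. Points are libraries (green for transplanted, purple for cultured cells) and the bar is the mean of 2. *Ccl2*, *Ccl7*, *Ccl3* and *Ccl4* share 1 profile, with the 2-week cultures highest, whereas *Ccl8* is high in all 4 transplanted libraries and near 1 to 2 FPKM in all 4 cultured ones.

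The comparison of transplanted with cultured cells after 1 week asks how transcript levels of the ligands differed between the settings. *Ccl8* and *Ccl12* were higher *in vivo* and *Ccl6* was lower, and the other 7 members did not pass the test. A gene was called at an adjusted p under 0.01 with a log2 fold change over 1 in size, from a limma fit of log2(FPKM + 0.1) across 15708 genes with Benjamini-Hochberg adjustment. All 10 members were among the genes tested. By that rule 3 of 10 members were called, 2 higher and 1 lower, where 12.9% of all tested genes were called, 7.79% higher and 5.07% lower. Without regard to the test, both transplanted libraries were above both cultured ones for 3 members (36.2% of all tested genes) and below both for 5 (36.6%).

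*Ccl8*, in the mouse a ligand of CCR8, gave the clearest contrast of all members. Its FPKM was 36.3 and 25.7 in the In vivo 1w libraries and 0.890 and 1.31 in the In vitro 1w libraries. It was 52.0 and 42.2 in the In vivo 2w libraries and 2.12 and 1.73 in the In vitro 2w libraries. The lowest transplanted library was therefore far above the highest cultured one at both ages. The log2 fold change was 4.70 (SE 0.23, adjusted p = 1.3e-05 by limma), a 25.9-fold difference, at 1 week. The value at 2 weeks was 4.54 (SE 0.23, limma adjusted p = 1.2e-05), or 23.3-fold. Only 7 to 15 fragments of *Ccl8* were counted in each cultured library, against 171 to 300 in each transplanted library. Both calls were kept under every alternative run.

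*Ccl12* (MCP-5), the third CCR2 ligand of the mouse, was at 43.1 and 42.9 FPKM in the In vivo 1w libraries and at 10.5 and 9.23 in the In vitro 1w libraries. The replicates lay close together and the groups did not overlap. The log2 fold change was 2.11 (SE 0.20, limma adjusted p = 2.5e-04), or 4.33-fold.

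*Ccl6*, a CCR1 ligand made by myeloid cells, was at 20.6 and 15.4 FPKM *in vivo* and at 53.2 and 64.9 in culture at 1 week. Both transplanted libraries were below both cultured ones. Its log2 fold change was -1.72 (SE 0.16, limma adjusted p = 2.3e-04), a level 3.30-fold lower *in vivo*.

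*Ccl2* (MCP-1), the main monocyte attractant, was at 130.2 and 144 FPKM in the In vivo 1w libraries and at 236 and 244 in the In vitro 1w libraries. *Ccl7* (MCP-3) ran beside it, at 128 and 129 *in vivo* and 254 and 255 in culture. The transplanted libraries were lower for both genes without overlap, yet neither passed: the log2 fold change was -0.81 (SE 0.19, limma adjusted p = 0.0121) for *Ccl2* and -0.99 (SE 0.21, limma adjusted p = 0.00811, under the fold threshold) for *Ccl7*. *Ccl3* (MIP-1α) showed the same size of difference, at 95.4 and 136 FPKM *in vivo* against 188 and 212 in culture, with a log2 fold change of -0.81 (SE 0.23, limma adjusted p = 0.0267). These 3 passed as lower *in vivo* when the deposited scaling between libraries was removed or replaced by quantile normalization, with log2 values of -1.15 to -1.49. Removing the scaling shifted the median of all genes by -0.34.

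The remaining members were less separated at 1 week. *Ccl4* (MIP-1β) differed more between its transplanted replicates, at 109 and 214 FPKM, than between the settings, with 149 and 159 in culture. Its log2 fold change was -0.01 (95% interval -0.89 to 0.86), and without replicate 1 of In vivo 1w it was 0.47. *Ccl5* (RANTES), a chemokine made by T cells and activated macrophages, was at 2.40 and 4.96 FPKM *in vivo* and 0.609 and 0.628 in culture, from 27 and 62 fragments against 9 and 9. Its log2 fold change of 2.31 had a wide SE of 0.60 and did not pass (limma adjusted p = 0.0201). *Ccl9*, another CCR1 ligand, was at 22.5 and 20.8 FPKM *in vivo* and 25.7 and 30.0 in culture. *Ccl11* rested on 7 to 23 fragments per library at 1 week, and its transplanted libraries, at 0.553 and 1.63 FPKM, lay on either side of the cultured ones, at 1.08 and 1.18.

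After 2 weeks the same comparison was dominated by 4 members that were low *in vivo*. *Ccl2*, *Ccl3*, *Ccl4* and *Ccl7* were 7.88- to 11.6-fold lower in transplanted than in cultured cells, *Ccl8* was the only member called higher, and *Ccl12* no longer differed beyond its spread. By the same rule 5 of 10 members were called, 1 higher and 4 lower, where 17.1% of all tested genes were called, 9.02% higher and 8.05% lower. Both transplanted libraries were above both cultured ones for 2 members (36.8% of tested genes) and below both for 7 (37.4%).

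*Ccl2* was at 82.5 and 56.9 FPKM in the In vivo 2w libraries and at 663 and 853 in the In vitro 2w libraries. The log2 fold change was -3.45 (SE 0.19, limma adjusted p = 1.5e-05). *Ccl7* was at 96.9 and 61.8 FPKM *in vivo* and 745 and 955 in culture, with a log2 fold change of -3.44 (SE 0.21, limma adjusted p = 2.4e-05). For both genes each cultured library held more than every transplanted one.

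*Ccl3* and *Ccl4*, which attract monocytes, macrophages and lymphocytes, followed them although they lie in the other block. *Ccl3* was at 80.3 and 58.2 FPKM *in vivo* and 687 and 913 in culture, with a log2 fold change of -3.53 (SE 0.23, limma adjusted p = 3.3e-05). *Ccl4* was at 112 and 63.4 FPKM *in vivo* and 569 and 777 in culture, with a log2 fold change of -2.98 (SE 0.37, limma adjusted p = 6.2e-04). Replicate 2 of In vivo 2w was the lower of its pair for *Ccl2*, *Ccl7*, *Ccl3*, *Ccl4* and *Ccl12*. All 4 calls held under every alternative run.

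*Ccl12* stood apart again. It was at 32.3 and 24.8 FPKM *in vivo* and 27.7 and 41.9 in culture, so that the groups overlapped. Its log2 fold change was -0.27, with a 95% interval on both sides of 0 (-0.75 to 0.21). Without replicate 2 of In vitro 2w it was 0.03. *Ccl6* was at 57.2 and 63.4 FPKM *in vivo* and 64.6 and 76.1 in culture, a log2 difference of -0.22 (95% interval -0.61 to 0.17). *Ccl9* was at 28.2 and 21.6 against 37.1 and 52.0 FPKM and missed the fold threshold, with a log2 fold change of -0.83 (SE 0.19, limma adjusted p = 0.00902).

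The 2 least abundant members did not pass at 2 weeks. *Ccl11* was at 0.737 and 0.753 FPKM *in vivo* and 2.67 and 2.58 in culture, from 9 fragments in each transplanted library, with a log2 fold change of -1.69 (SE 0.41, limma adjusted p = 0.0126). It passed in 9 of the 20 alternatives. *Ccl5* was at 2.21 and 0.943 FPKM *in vivo* and 0.151 and 0.613 in culture, where it rested on 2 and 8 fragments, and its log2 fold change was 1.88 (SE 0.60, limma adjusted p = 0.0371).

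**Figure D2:**
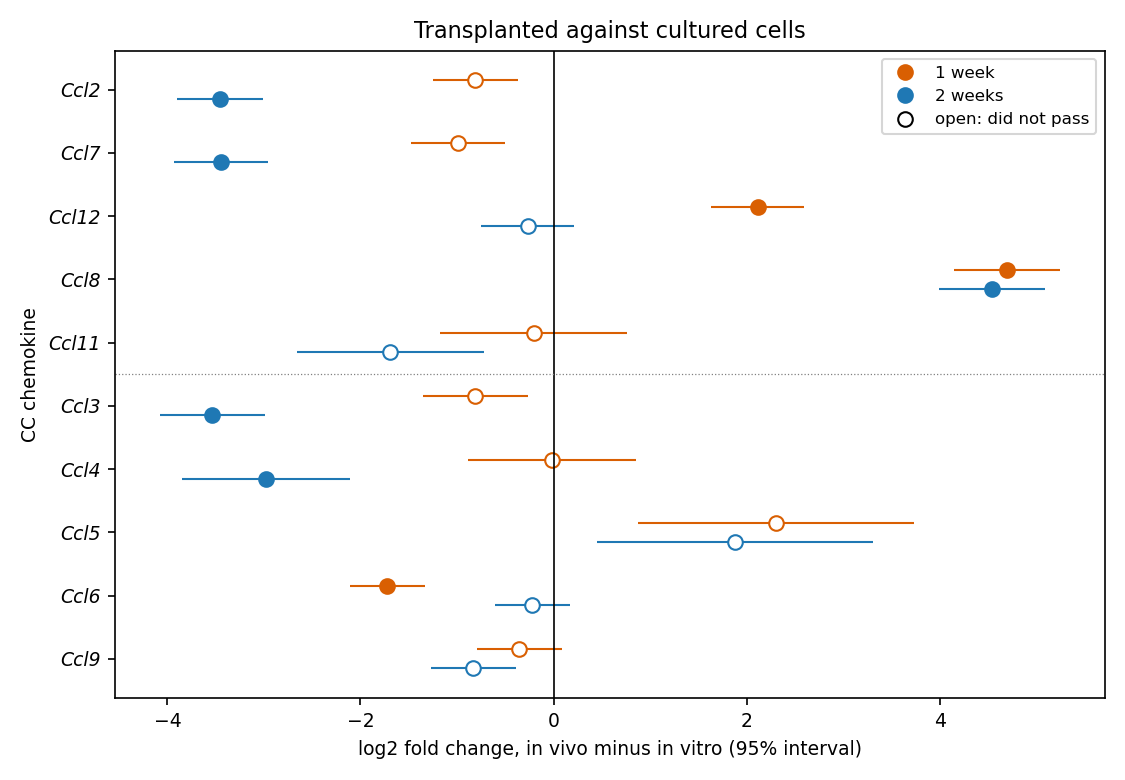
Log2 fold change of each member, transplanted minus cultured, at 1 week (orange) and 2 weeks (blue), with 95% intervals from the limma fit. Filled points passed the test and open ones did not, and the dotted line separates the first from the second genomic block. *Ccl8* stays near 4.70 and 4.54 at both weeks, whereas *Ccl2*, *Ccl7*, *Ccl3* and *Ccl4* move to between -3.53 and -2.98 at 2 weeks.

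Whether the effect of the setting itself differed between the weeks was tested as an interaction. It was more negative at 2 weeks for *Ccl2* (-2.64, SE 0.26), *Ccl3* (-2.72, SE 0.32), *Ccl7* (-2.46, SE 0.29) and *Ccl12* (-2.38, SE 0.29) on the log2 scale, with limma adjusted p-values of 0.00374, 0.00609, 0.00609 and 0.00623. Thus 4 of 10 members were called, all 4 downward, and 0 upward (1 upward at an unadjusted p under 0.05 and 1 by voom), where 1.73% of tested genes were called, 1.15% downward and 0.573% upward. *Ccl12* shared this shift with *Ccl2* and *Ccl7*, although it began above culture and they began below it. *Ccl4* had a larger estimate with a wider error (-2.96, SE 0.52, limma adjusted p = 0.0186), and *Ccl6* went the opposite way (1.502, SE 0.23, limma adjusted p = 0.0119). *Ccl8* showed a difference of -0.15 with a 95% interval of -0.93 to 0.62. Leaving out 1 library at a time left 0 to 3 of the 4 calls, with 3 left without replicate 1 of In vivo 2w, 2 without replicate 2 of In vivo 2w and 0 in the other 6 cases, and the calls also numbered 0 without a filter on low genes, without the variance trend and with a replicate block. By voom 6 members were called, 5 downward and 1 upward.

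The same 8 libraries can be read along time. In culture, *Ccl2*, *Ccl3*, *Ccl4*, *Ccl7* and *Ccl12* rose from 1 to 2 weeks, by 3.13- to 4.31-fold. Here 5 of 10 members were called higher and 0 lower by limma, with 0 lower at an unadjusted p under 0.05 and 0 lower by limma's voom on recovered fragments, where 3.81% of tested genes were called, 2.76% higher and 1.05% lower. Both 2-week cultures were above both 1-week cultures for 8 members (34.8% of tested genes) and below both for 0 (31.4%). The log2 change was 1.65 for *Ccl2* (SE 0.19, limma adjusted p = 0.00182), 1.73 for *Ccl7* (SE 0.21, limma adjusted p = 0.00218) and 1.78 for *Ccl12* (SE 0.20, limma adjusted p = 0.00187). It was 1.99 for *Ccl3* (SE 0.23, limma adjusted p = 0.00190) and 2.11 for *Ccl4* (SE 0.37, limma adjusted p = 0.00851). The 3 CCR2 ligands of the set and both MIP-1 genes thus rose in the same cultures. *Ccl8* (0.77), *Ccl9* (0.66) and *Ccl11* (1.15) had higher values at 2 weeks in both libraries without passing, and *Ccl5* (-0.77) and *Ccl6* (0.25) overlapped. The calls numbered 0 without either replicate of In vitro 1w and 1 or 3 without a replicate of In vitro 2w, while the log2 changes of the 5 genes stayed between 1.46 and 2.33.

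*In vivo*, *Ccl6* was the one member called over the same week. Its FPKM went from 20.6 and 15.4 to 57.2 and 63.4, a log2 change of 1.76 (SE 0.16, limma adjusted p = 0.00160) or 3.38-fold, so that the transplanted cells came to the level of the cultures, which had begun at 53.2 and 64.9. This was 1 of 10 members called by limma, with 0 called lower, where 2.18% of tested genes were called, 1.23% higher and 0.949% lower. Both 2-week libraries were above both 1-week libraries for 2 members (28.7% of tested genes) and below both for 5 (28.9%). When the fit held only the 4 transplanted libraries the adjusted p was 0.0127 and the call was lost. *Ccl2* had a log2 difference of -0.997 (SE 0.19, limma adjusted p = 0.0155), *Ccl7* of -0.73 and *Ccl3* of -0.74, each with both 2-week libraries below both 1-week libraries. The value was -0.60 for *Ccl12* and 0.62 for *Ccl8*, and neither passed. At an unadjusted p under 0.05, 4 members were lower and 2, *Ccl6* and *Ccl8*, were higher, and voom called 1 higher and 0 lower.

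**Figure D3:**
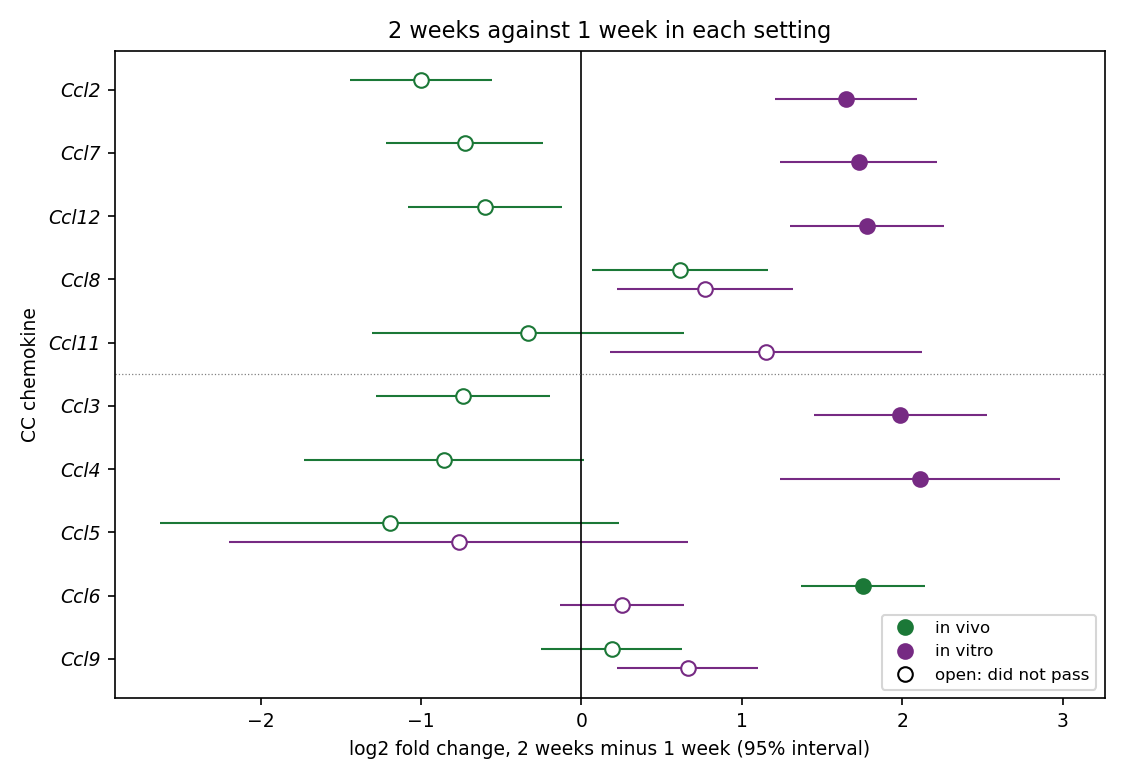
Log2 fold change of each member from 1 to 2 weeks in transplanted (green) and cultured cells (purple), with 95% intervals from the limma fit and filled points for genes that passed. *Ccl2*, *Ccl7*, *Ccl12*, *Ccl3* and *Ccl4* lie between 1.65 and 2.11 in culture and between -0.997 and -0.60 *in vivo*, and *Ccl6* is the only filled point *in vivo*.

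The monocyte-attracting cluster was compared with the other members over setting and week. For the setting its median log2 fold change moved from -0.81 in the first week to -3.44 in the second, against -0.21 and -0.83 for the other 7. Over time its median was 1.73 in culture and -0.73 *in vivo*, against 0.77 and -0.33. The medians of all tested genes lay between -0.01 and 0.02 in these contrasts. With *Ccl8* and *Ccl11* added, the cluster's median for the setting became -0.21 at 1 week and -1.69 at 2 weeks. The cluster was not uniform, because *Ccl12* was higher *in vivo* at 1 week (2.11) while *Ccl2* was not (-0.81), and the 4 members called lower *in vivo* at 2 weeks came from both blocks. The sum *Ccl2* + *Ccl7* + *Ccl12* made up 51.2% and 43.0% of all member FPKM in the In vivo 1w libraries, 54.4% and 52.0% in the In vitro 1w libraries, 38.9% and 36.4% in the In vivo 2w libraries and 51.3% and 50.4% in the In vitro 2w libraries. The lowest shares were those of the 2-week transplants.

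Ratios within a library do not depend on scaling between libraries. The ratio of *Ccl2* to *Ccl7* FPKM held between 0.852 and 1.12 in all 8 libraries. The ratio of *Ccl2* to *Ccl12* was 2.30 to 3.36 in the transplanted and 20.4 to 26.5 in the cultured libraries, without overlap at either week. For *Ccl2* to *Ccl8* it was 1.35 to 5.60 *in vivo* and 187 to 494 in culture. The ratio of *Ccl3* to *Ccl4* was 0.638 to 0.918 *in vivo* and 1.18 to 1.34 in culture. The balance of ligands therefore differed between the settings at both weeks, while the balance of *Ccl2* and *Ccl7* hardly moved.

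**Figure D4:**
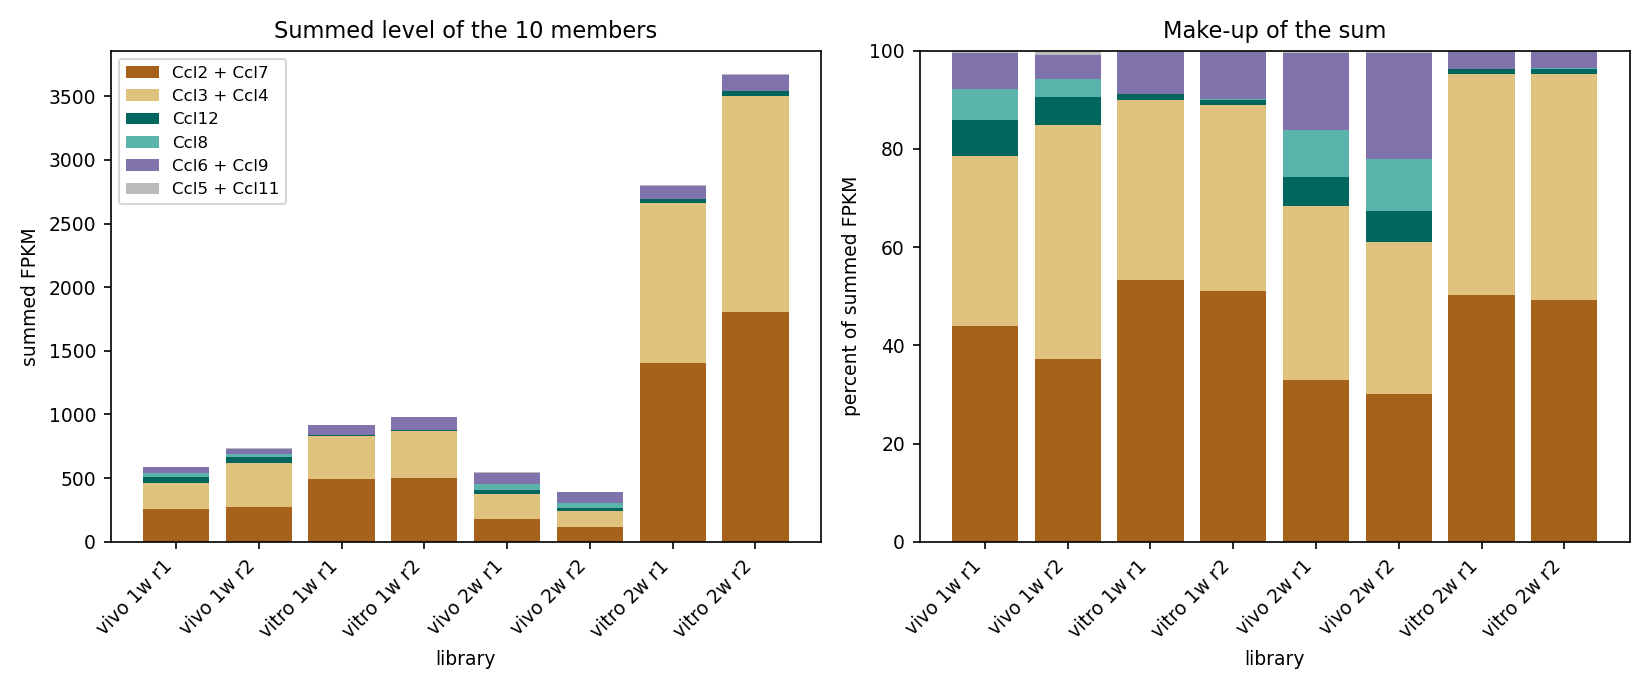
Summed FPKM of the 10 members in each library (left) and the percent of that sum contributed by each group of members (right). The 2-week cultures reach 2799 and 3673 against at most 978 elsewhere, *Ccl8* and *Ccl12* take larger shares in the transplanted libraries at both weeks, and *Ccl6* and *Ccl9* do so at 2 weeks.

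Across the 8 libraries, *Ccl2* and *Ccl7* had a Pearson r of 0.996 on the log2 scale, *Ccl3* and *Ccl7* of 0.992, and *Ccl3* and *Ccl4* of 0.966. For *Ccl12* and *Ccl2* it was -0.02, and for *Ccl8* and *Ccl2* -0.80. These values describe 8 points that fall into 4 groups and share library and scaling. Outside the family, the genes most like *Ccl2* were *Efhd2* (r = 0.997), *Rnf122* and *Plau*, the gene of urokinase (both r = 0.991). For *Ccl7* they were *Efhd2* (0.997), *Colec11* and the CXC chemokine *Cxcl5* (both 0.995). *Ccl3* was closest to *Rasgef1b* (0.994), *Marcksl1* (0.993) and *Rnf122* (0.990), and *Ccl4* to *Vhl* (0.985), *Marcksl1* (0.978) and *Abra* (0.975). *Ccl8* was closest to *Sox9*, a chondrogenic transcription factor also made by activated fibroblasts (0.998), *Ust* (0.997) and *Igsf10* (0.996). *Ccl12* was closest to *Arf5* (0.984), *Garnl3* (0.970) and *Ptpn2* (0.968), and *Ccl6* to *Bmp4* (0.983), *Ntrk3* (0.972) and *Asb2* (0.970). The nearest gene was *Nxnl2* (0.993) for *Ccl9* and *Amigo3* (0.967) for *Ccl11*, with *Tnf* next (0.952). The genes named were the closest of all protein-coding genes tested over n = 8 libraries.

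The region just before the start site was read where the RefSeq promoter table for GRCm38.p6 holds it, which was the case for 5 of the 10 members (*Ccl3*, *Ccl6*, *Ccl8*, *Ccl9* and *Ccl12*). The 250 bases before the start are given for *Ccl8* and *Ccl12*, the neighbours that were called higher *in vivo* at 1 week, and for *Ccl3*, which was called lower at 2 weeks. They read 5′ to 3′ on the strand of the gene, and capitals mark TATAAA matches.
Ccl8, chr11:82114935-82115184, forward strand: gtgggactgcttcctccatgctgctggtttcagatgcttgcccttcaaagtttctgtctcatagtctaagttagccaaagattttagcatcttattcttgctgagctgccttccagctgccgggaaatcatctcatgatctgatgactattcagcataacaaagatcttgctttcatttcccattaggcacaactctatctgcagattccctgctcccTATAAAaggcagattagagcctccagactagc
Ccl12, chr11:82101595-82101844, forward strand: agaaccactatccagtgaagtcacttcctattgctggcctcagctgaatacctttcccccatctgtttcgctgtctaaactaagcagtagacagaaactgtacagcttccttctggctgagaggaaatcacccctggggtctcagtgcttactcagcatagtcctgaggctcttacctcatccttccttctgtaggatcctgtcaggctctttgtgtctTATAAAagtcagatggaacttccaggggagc
Ccl3, chr11:83649379-83649628, reverse strand: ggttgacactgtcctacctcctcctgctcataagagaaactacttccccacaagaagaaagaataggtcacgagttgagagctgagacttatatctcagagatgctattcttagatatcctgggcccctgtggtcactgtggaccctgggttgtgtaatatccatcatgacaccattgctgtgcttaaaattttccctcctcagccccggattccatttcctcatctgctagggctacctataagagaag
TATAAA starts 32 bases before the start of *Ccl8* and 31 bases before that of *Ccl12*. Windows from 250 bases before to 50 bases after the start were searched on both strands. TATAAA was present in 3 of the 5 windows (*Ccl8*, *Ccl12* and *Ccl9*) and in 13.6% of the 32851 promoters of the table. The core of the ISRE, the site of interferon-activated factors, was in 0 of the 5 windows and in 3.44% of all promoters. The AP-1 letters TGANTCA were in the *Ccl9* window only and in 7.81% of promoters, and the κB consensus was in the *Ccl9* window only and in 4.51%. A match is a run of letters and not a shown binding site, and its absence concerns these windows alone.

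The receptors of these ligands differed between the settings as well. *Ccr2*, the receptor of the monocyte-attracting cluster, was at 6.23 and 3.33 FPKM in the In vivo 1w libraries and 2.24 and 2.73 in the In vivo 2w libraries. In culture it was at 0.0192 and 0.0792 FPKM at 1 week, from 2 and 8 fragments, and at 0 in both 2-week libraries. It was called higher *in vivo* at both weeks (limma adjusted p = 9.0e-05 and 9.3e-05), and at 2 weeks it was at least 76.8-fold higher, with the floor set at 3 fragments per library. The ligands with high levels in the 2-week cultures thus stood beside a receptor with no counted fragment there.

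*Ccr1*, a receptor of CCL3, CCL5, CCL6 and CCL9, did not pass in either week (1.20 and -0.28) but rose in culture with time by 1.63. *Ccr3*, the eotaxin receptor, was called lower *in vivo* at both weeks, at 0.157 and 0.0938 FPKM against 0.953 and 1.105 at 1 week, and at 0.0271 and 0 against 3.23 and 4.52 at 2 weeks.

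Atypical receptors bind chemokines without classical signalling, and some can remove them. Of 6 genes listed as atypical or scavenging receptors, 5 were tested, and *Ackr2* and *Ackr4* were called higher *in vivo* at both weeks. The most abundant of the list, *Ccrl2* (0.23 and -1.13) and *Ackr3* (0.43 and 0.94), were not called by limma at either week. At 2 weeks voom called 2 of the list higher and 1 lower. *Ackr2*, a scavenger of inflammatory CC chemokines, was at 0.355 and 0.638 FPKM *in vivo* at 1 week and 1.98 and 1.97 at 2 weeks, and no more than 1 fragment was counted in any cultured library. *Ackr4* was at 3.92 and 3.81 FPKM *in vivo* and 0.229 and 0.274 in culture at 1 week, a log2 fold change of 3.50, and the value at 2 weeks was 3.31. Of 10 further CC ligands outside the set, 5 were tested. At 1 week limma called 0 (2 higher and 1 lower at an unadjusted p under 0.05, and 1 higher by voom), and at 2 weeks *Ccl17* (4.04) and *Ccl22* (3.82), both ligands of CCR4, were called higher *in vivo*. At their highest these reached 10.6 and 2.77 FPKM.

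**Figure D5:**
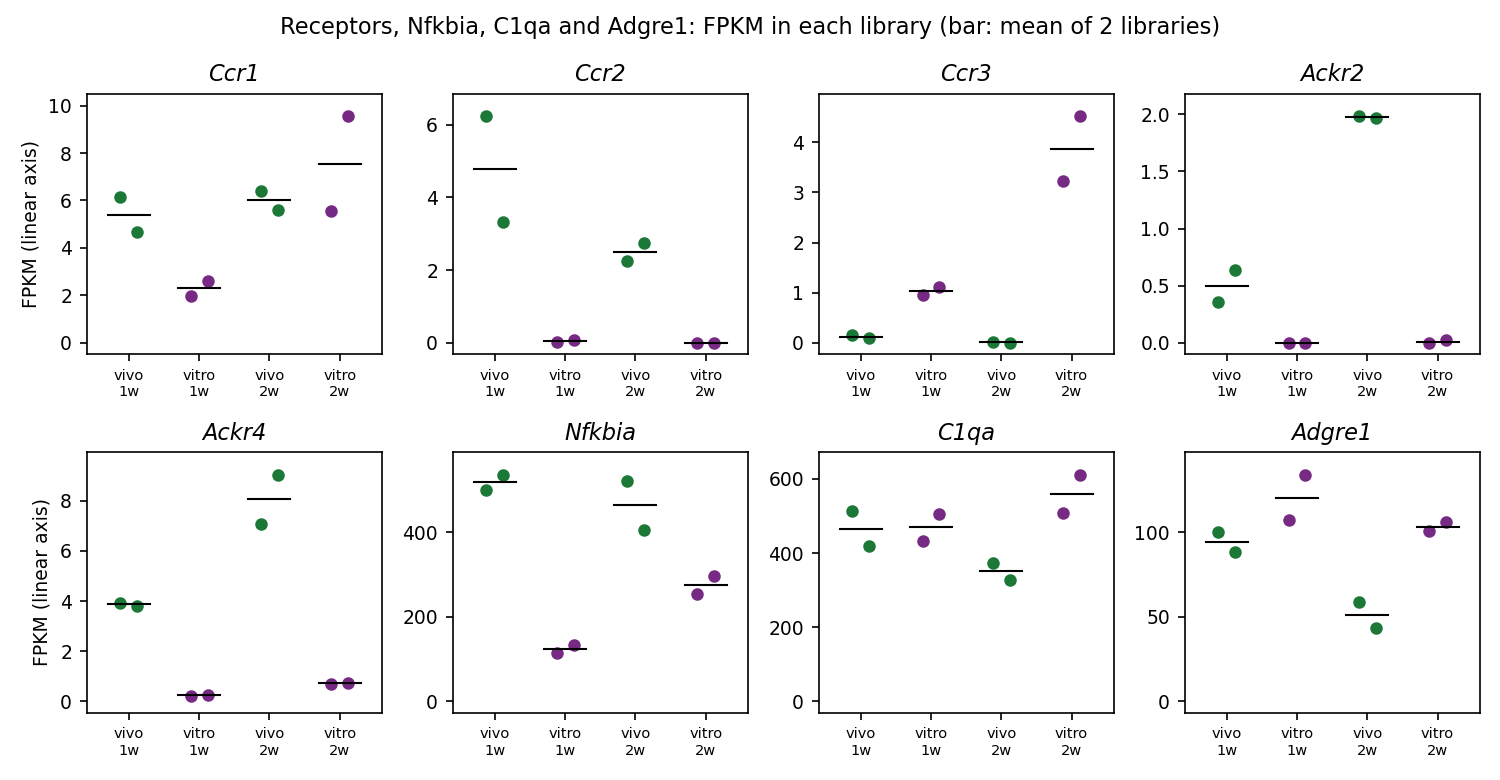
FPKM of 3 CC receptors, 2 atypical receptors, the NF-κB inhibitor gene *Nfkbia* and the macrophage markers *C1qa* and *Adgre1* in each library, each on its own linear axis that includes 0. *Ccr2*, *Ackr2* and *Ackr4* are close to 0 in all cultured libraries, and *C1qa* lies between 327 and 611 FPKM throughout.

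Genes around the same pathways were counted from fixed lists. Of 14 NF-κB factors and feedback genes, 3 were called higher *in vivo* at 1 week (median log2 fold change 0.41), and 0 were called at 2 weeks (median -0.16), where 3 were higher and 6 lower at an unadjusted p under 0.05 and voom called 1 lower. *Nfkbia*, an inhibitor that NF-κB itself induces, was at 501 and 536 FPKM *in vivo* and 116 and 133 in culture at 1 week, with a log2 fold change of 2.06. It rose in culture by 1.15 with time, in the same interval as *Ccl2*. *Tnfaip3*, another feedback gene, had log2 values of 1.88 and 0.58 for the same contrast in the first and second week.

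Of 6 JAK-STAT feedback genes 0 were called at 1 week by limma or voom (4 higher and 1 lower at an unadjusted p under 0.05), and at 2 weeks 1 was higher and 1 lower. These were *Socs1* (1.11) and *Cish* (-2.24). *Socs3* was at 243 and 234 FPKM *in vivo* and 123 and 129.7 in culture at 2 weeks, under the fold threshold with a log2 value of 0.91. Of 10 glucocorticoid-induced genes, 4 were called higher and 1 lower *in vivo* at each week. *Dusp1*, a phosphatase gene induced by glucocorticoids and by stress, had log2 fold changes of 1.98 and 2.50, and *Mt1* was the one lower gene (-1.02 and -1.90). Methylprednisolone was given to hosts only, so drug and setting cannot be told apart. Of 12 genes that cut or present chemokines, 5 were called at each age, 3 of them upward *in vivo* after 1 week and 2 of them upward after 2 weeks. *Mmp2*, whose protease trims CCL7, had a log2 fold change of 1.65 at both weeks, and *Sdc4*, a heparan sulfate carrier, had -2.06 at 2 weeks.

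Markers of other cells moved with some of these results. Of 15 macrophage markers, 2 were called after 1 week, 1 in each direction, and 10 after 2 weeks, of which 9 were lower *in vivo*, with medians of -0.40 and -1.06. Those called after 1 week were *Fcgr1*, higher *in vivo* (2.61), and *Lyz2*, lower (-1.45). Over time *in vivo*, limma called 0 of them, although 1 was higher and 10 were lower at an unadjusted p under 0.05. Voom called 1 higher and 1 lower. Over time in culture limma and voom called 0, with 3 higher and 1 lower at an unadjusted p under 0.05. In the difference between weeks limma called 0, with 2 higher and 11 lower at an unadjusted p under 0.05. Voom called 0 higher and 4 lower there. Each of the 15 was above 0 in every group. *C1qa*, a complement gene of macrophages, had log2 values of -0.01 and -0.67 in the first and second week. *Adgre1* (F4/80) had -0.35 and -1.04, and *Ptprc* (CD45) had 0.15 and -0.29. At 2 weeks the list ran from -1.74 (*Cd68*) to 1.48 (*Cd163*, the 1 marker called higher). *Lyz2* was at -1.60, *C1qb* at -1.06 and *C1qc* at -1.10, all called lower. The median over the 15 markers was -1.06 at 2 weeks, and *Ccl2*, *Ccl7*, *Ccl3* and *Ccl4* had -3.53 to -2.98. *C1qa*, the divisor of the ratios that follow, was not called at either week. The ratio of *Ccl2* to *C1qa* FPKM was 0.254 and 0.344 in the In vivo 1w libraries, 0.546 and 0.483 in the In vitro 1w libraries, 0.221 and 0.174 in the In vivo 2w libraries and 1.30 and 1.40 in the In vitro 2w libraries. For *Ccl3* to *C1qa* it was 0.178 to 0.325 in the 4 transplanted libraries and 1.35 and 1.49 in the 2-week cultures. These ratios were chosen after the values had been seen, and the part of macrophage content in the results was not tested.

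Of 5 monocyte markers 4 were tested, and *Ccr2*, *Plac8* and *Chil3* were called higher *in vivo* at both weeks, with *Chil3* and *Ly6c2* at 0 in all 4 cultured libraries. The summed monocyte FPKM was 32.0 to 51.2 *in vivo* and 3.95 to 4.18 in culture at 1 week, and 13.5 to 21.3 against 2.41 to 2.68 at 2 weeks. It was therefore higher in the same libraries as *Ccl8*, *Ccl5* (not called at either week) and, at 1 week, *Ccl12*. Over time *in vivo* the monocyte sum fell and *Plac8* was called lower (-1.76), whereas *Ccl8* had a log2 change of 0.62 that was not called. Of 10 fibroblast markers 6 were called higher *in vivo* and 0 lower at each week, with 2 and 1 lower at an unadjusted p under 0.05 and 0 lower by voom. The matrix genes *Col1a1* (2.36 and 3.004), *Postn* (3.46 and 3.56) and *Col1a2* (2.04 and 2.60) were among those called higher. The 4 not called were *Pdgfra* (0.06 and 0.20), *Tcf21* (0.32 and 0.35), *Thy1* (-0.75 and -0.36) and *Ddr2* (-0.62 and -0.01). The 4 mesothelial markers were all called lower *in vivo* at both weeks and 5 of 6 endothelial markers higher at 1 week. Summed endothelial FPKM in culture went from 19.8 to 20.7 at 1 week to 40.2 to 47.7 at 2 weeks, and was 72.9 to 80.5 and 63.8 to 70.7 *in vivo*. Over time in culture 4 of the 6 were called higher, *Pecam1* (1.60), *Cdh5* (1.59), *Kdr* (1.54) and *Emcn* (2.10), beside the rise of *Ccl2*. In the difference between weeks *Pecam1* (-1.72), *Cdh5* (-2.23) and *Kdr* (-1.83) were called lower, as *Ccl2* was. Summed mesothelial FPKM in culture was 110 to 116 at 1 week and 291 to 294 at 2 weeks, which is the interval in which *Ccl2*, *Ccl7*, *Ccl12*, *Ccl3* and *Ccl4* rose. *In vivo* the mesothelial sum rose too, from 9.78 to 11.1 at 1 week to 24.1 to 24.3 at 2 weeks. There 3 of the 4 mesothelial markers were called higher over time, whereas these chemokines had log2 changes between -0.997 and -0.60 and were not called. Summed cardiomyocyte markers went from 105 to 115 up to 550 to 622 in culture between the weeks and stayed between 9.14 and 19.6 *in vivo*. The part of monocyte, fibroblast, mesothelial, endothelial or cardiomyocyte content in the chemokine levels was not tested.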

How the data were processed

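The authors deposited 1 table of FPKM values per gene and library, 54532 genes by 8 libraries. Per the labels, total RNA was extracted with a Zymo kit and libraries were made with a SMARTER mRNA-seq kit, and the submitters' processing notes name CASAVA, HISAT2 2.0.5 and mm10. The counting program, strandedness and multi-read handling are not given in the sources used here. The deposited FPKM hold a scaling between libraries: the implied library size stood at 0.863 to 0.915 of the counted fragments for transplanted libraries and at 1.09 to 1.15 for cultured ones. Multiplied by gene length, 100% of values came out as whole fragments within 0.01 fragment, and these fragments were used for limma voom as an alternative. Scaling differences act on every gene of a library alike, and ratios within a library are free of them.

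Groups were taken from the sample titles. Values were tested as log2(FPKM + 0.1) for genes at 0.5 FPKM or more in at least 2 libraries, with limma 3.58.1 (R 4.3.3, variance trend, 1 fit over 4 groups, 5 contrasts) and Benjamini-Hochberg adjustment. Fold changes of low genes are understated on this scale. The fit was tested on simulated counts with 200 changed genes: at 1 week 160 of 195 tested ones were recovered with 6 false calls, and at 2 weeks 149 with 5. Every simulated gene had the same dispersion, unlike real genes. The difference between weeks and the changes over time were not simulated. Sequence steps used Python 3.11.15 and Biopython 1.88. Positions of all 10 members are the same in the deposited table and in GENCODE vM21. The text names all members, and from each fixed list at most the 4 genes with the highest mean FPKM plus *Ccr2*, *Ccr1*, *Ackr2*, *Ptprc*, *Adgre1*, *C1qa* and *Col1a1*. Some other listed genes, *Chil3* and *Ly6c2* among them, are named besides, and not every gene behind a count of calls is named. Members and lists were chosen with earlier results of these data known. Alternatives changed the pseudocount, filter, scaling, variance trend, gene set, thresholds, libraries, replicate block and tool. Some results of the lists, the likeness search and the motif search are not reported here.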

Additional observations from a re-analysis of the deposited data

Results flagged for a closer look

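The effect of transplantation against culture differed between 1 and 2 weeks for 4 members, by a test of the difference itself in the limma fit with Benjamini-Hochberg adjustment. On the log2 scale the difference (2 weeks minus 1 week) was -2.64 for *Ccl2*, -2.72 for *Ccl3*, -2.46 for *Ccl7* and -2.38 for *Ccl12* (limma adjusted p 0.00374, 0.00609, 0.00609 and 0.00623). In all 4 the level in culture rose between the weeks (1.65, 1.99, 1.73 and 1.78) while the *in vivo* values were -0.997, -0.74, -0.73 and -0.60. For *Ccl12* this took a higher level *in vivo* at 1 week to values that overlapped with culture at 2 weeks. The 4 calls fell to 0 without a filter, without the variance trend, with a replicate block (limma adjusted p 0.0116 to 0.0167) and in 6 of the 8 fits that left out a library.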

How the results depend on the processing

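Of 990 values of single members under the alternatives, 875 kept their direction and side of the threshold, 61 kept the direction but no longer passed, 42 newly passed and 12 changed sign. The number of members called at 1 week was 3 as reported, 6 with quantile normalization, 6 without the scaling between libraries and 7 at an adjusted p under 0.05 with no fold threshold. At 2 weeks it was 5, then 6 by voom, 7 without scaling, 8 at the looser threshold and 5 to 6 over the leave-one-out fits. For the difference between weeks it was 4, then 6 by voom, and 0 without a filter, without the variance trend and with a replicate block, with 0 to 3 over the leave-one-out fits. Over time *in vivo* it was 1, then 2 with quantile normalization, without scaling or at the looser threshold, 0 with only the transplanted libraries and 1 to 2 over the leave-one-out fits. Over time in culture it was 5, and 0 to 6 over the leave-one-out fits. Fits with a library left out hold fewer samples.

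The median log2 fold change of *Ccl2*, *Ccl7* and *Ccl12* became -1.31 at 1 week with quantile normalization, -1.15 without scaling and -0.21 in the wider cluster. At 2 weeks it became -3.78 without scaling and -1.69 in the wider cluster, and over time in culture 1.42 with quantile normalization. That of the other members became -0.52 at 1 week and -1.16 at 2 weeks without scaling, and -0.74 over time *in vivo* beside the wider cluster. Over the leave-one-out fits the median of *Ccl2*, *Ccl7* and *Ccl12* ran from -3.72 to -3.12 at 2 weeks, -2.78 to -2.19 for the difference between weeks, -1.05 to -0.41 over time *in vivo* and 1.48 to 1.91 over time in culture. That of the other members ran from -0.50 to 0.47, -1.07 to -0.59, -1.18 to -0.29, -0.99 to 0.13 and 0.55 to 1.03 at 1 week, at 2 weeks, for the difference between weeks, over time *in vivo* and over time in culture.

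Single members changed sign as follows. The difference between weeks of *Ccl8* became 0.12 with a pseudocount of 1, 0.10 without In vitro 1w replicate 1 and 0.09 without In vivo 1w replicate 1. That of *Ccl5* became 0.32 without In vitro 2w replicate 2, 0.08 without In vivo 1w replicate 2 and 0.15 without In vivo 2w replicate 2. *Ccl4* at 1 week became 0.03 without In vitro 1w replicate 2 and 0.47 without In vivo 1w replicate 1. *Ccl12* at 2 weeks became 0.030 without In vitro 2w replicate 2 (leave-one-out range -0.56 to 0.030). *Ccl11* became 0.50 at 1 week without In vivo 1w replicate 1 (range -0.91 to 0.50) and 0.37 over time *in vivo* without In vivo 1w replicate 2 (range -1.04 to 0.37). *Ccl9* over time *in vivo* became -0.0015 without In vivo 2w replicate 1 (range -0.0015 to 0.38). The cause was not tested.

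Same-numbered replicates did not deviate together (r of their deviations -0.05 to -0.01 over the 6 pairs of groups), so the numbers were not read as pairs. With the replicate number as a block the limma adjusted p of the 4 differences between weeks was 0.0116 for *Ccl2*, 0.0146 for *Ccl3*, 0.0163 for *Ccl7* and 0.0167 for *Ccl12*, and *Ccl4* over time in culture missed at 0.0172. Over all genes the difference between weeks gave 271 calls as reported, 27 with the block, 72 without a filter, 71 without the variance trend, 473 with voom and 463 with protein-coding genes only. With 2 libraries a group, *Ccl5*, *Ccl8* and *Ccl11* in culture rest on few fragments, and their fold changes are imprecise.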
